A study of Saccharomyces cerevisiae with 6 samples.

Results

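Chitin is a polymer of N-acetylglucosamine that yeast lays down at the mother-bud neck, in the primary septum and as a minor part of the lateral wall. The expression of 10 genes of this pathway was followed in myo1Δ and wild type strains of Saccharomyces cerevisiae: the chitin synthases CHS1 and CHS3, the genes SKT5, CHS5, CHS6, CHS7 and BNI4 that activate or move chitin synthase III, and the genes GFA1, GNA1 and QRI1 that make its substrate. They were chosen by function and found on the arrays by systematic name, and all 10 were among the 6256 genes measured. The MYO1 gene encodes the heavy chain of myosin II, the motor of the contractile ring.

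Each of 6 Agilent 2-colour arrays was hybridized with labeled RNA from a myo1Δ strain and a wild type strain. Arrays 1 to 3 compared YJR13 (myo1Δ, MATa) with YJR12 (wild type, MATα), which are segregants of YJR6 crossed to BY4741, and arrays 4 to 6 compared YJR6 (myo1Δ, MATα) with MGD353-46D (wild type, MATα), the strain it was made from. The 4 strains carry trp1, ura3, leu2-3 and his3delta1 mutations, and both mutants also carry myo1delta::HIS5+. YJR13 inherited the disruption made in YJR6, so both mutant lines descend from the same event. Cultures grew overnight at 26°C in CSM or in histidine dropout medium, and the dropout medium is the one given for YJR6. Since wild type strains with his3delta1 cannot grow without histidine, medium and genotype cannot be told apart on arrays 4 to 6. The labels leave the medium of YJR13 open. The study's text pairs dropout medium with the mutants and CSM with the wild types, so the same may hold on arrays 1 to 3. By the study's account each strain was grown in triplicate cultures. The dyes were swapped on arrays 2 and 5, where Cy3 marked the mutant, which had Cy5 on the other 4 arrays. By the names of their scan images, arrays 1 and 2, arrays 3 and 4, and arrays 5 and 6 were taken to share a slide, which the labels do not give.

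Chitin synthesis starts in the cytosol with fructose 6-phosphate, which Gfa1p, Gna1p, Pcm1p and Qri1p convert in that order to UDP-N-acetylglucosamine, a sugar that protein glycosylation also consumes. Chs3p, the catalytic subunit of chitin synthase III, makes most of the chitin of the wall. It leaves the endoplasmic reticulum with the help of Chs7p, leaves the Golgi with the exomer complex that contains Chs5p and Chs6p, and is activated and held at the septin ring by Skt5p (Chs4p) and Bni4p. Chs1p repairs damage at cell separation.

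All values are log2 ratios of myo1Δ over wild type after background correction and normalization within each array, so 0 is no difference and 1 is a doubling in the mutant. The mean over the 6 arrays was tested against 0 with limma, and a gene was called at an adjusted p of 0.05 over all genes. The deleted gene MYO1 was lower in the mutant on all 6 arrays, with a mean of -2.17 (SE 0.29, adjusted p = 0.00466). Its mutant signal was only 1.02 to 1.12 times the local background, and 3 of 6 values exceeded the 95th percentile of negative controls. The size of the fall is thus not well fixed, and its mean ran from -5.60 to -1.01 under other ways of processing the arrays. Array 3 stood apart: across genes, its correlation with each other array was between 0.144 and 0.477, against 0.546 to 0.770 among the other 5. Results that depend on array 3 are therefore given with and without it.

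Of the 10 chitin genes, CHS5 rose and QRI1 and GNA1 fell in myo1Δ strains, and 7 did not pass the test. The 1 gene called higher and the 2 called lower stand beside 14.2% of all genes called higher and 12.9% called lower, so the chitin genes were called about as often as genes in general. No chitin gene passed an adjusted p of 0.01 by limma, where 7.43% of all genes did, while 5 of the 10 had an unadjusted p under 0.05, as did 40.7% of all genes. The median of the 10 means was -0.14, against 0.00079 for all genes. QRI1 and GNA1 belong to the synthesis of UDP-N-acetylglucosamine and CHS5 to export from the Golgi. The calls of CHS5 and GNA1 each held in only 8 of 14 other processings, so no pattern by stage is read from them.

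**Figure D1:**
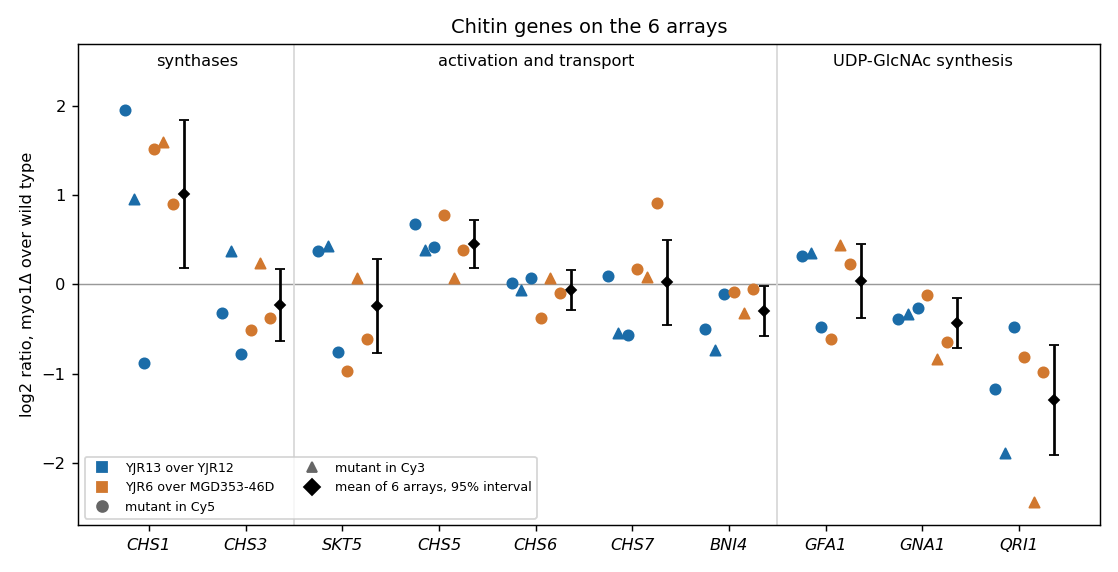
Log2 ratio of myo1Δ over wild type for each chitin gene on the 6 arrays, coloured by strain pair and shaped by the dye of the mutant, with the mean and its 95% interval (limma) at the right of each gene. By the mean of their spots, CHS5 lies above 0 and BNI4, GNA1 and QRI1 lie below 0 on all 6 arrays. Array 3 is the only array with CHS1 below 0.

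Of the synthases, CHS1 had the highest mean of all 10 genes. Its log2 ratio was 1.96, 0.96 and -0.88 on arrays 1, 2 and 3 (YJR13 over YJR12), and 1.52, 1.60 and 0.91 on arrays 4, 5 and 6 (YJR6 over MGD353-46D). The mutant was higher on 5 arrays, and array 3 alone lay below 0. The mean was 1.01 (SE 0.35, 95% interval 0.18 to 1.84), or 2.02-fold, and missed the threshold with an adjusted p of 0.0730 in limma. Without array 3 the mean was 1.39 (SE 0.18) and passed it with an adjusted p of 0.00515. On the 6 arrays 7.56% of all genes had a higher mean than CHS1.

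The spots of CHS1 were bright and its duplicate spots were close, with a median gap of 0.094 between them on the log2 scale. Both spots of CHS1 gave a negative ratio on array 3, at -0.96 and -0.80. Before normalization, however, the signal over local background on array 3 was 3.48 in myo1Δ and 2.80 in wild type, while the median over all spots of that array was 1.74 in myo1Δ and 1.22 in wild type. With the ratios centred on the median of each array in place of the intensity-dependent loess curve, CHS1 was -0.15 on array 3 and 0.29 to 1.97 on the other 5. The low value of array 3 thus depended in size, though not in sign, on the curve fitted to that array.

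CHS3 did not pass the test. Its log2 ratio was -0.32, 0.38 and -0.78 on arrays 1 to 3 and -0.52, 0.24 and -0.38 on arrays 4 to 6. The 4 arrays with the mutant in Cy5 were all below 0 and the 2 arrays with the mutant in Cy3 were both above it. On array 5, however, the value is the mean of spots at -0.48 and 0.96. The mean was -0.23 (SE 0.17), with a 95% interval of -0.63 to 0.17 and an adjusted p of 0.354. Without array 3 the mean was -0.12 (SE 0.17, adjusted p = 0.644).

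Of the genes that deliver chitin synthase III to the neck, only CHS5 passed the test. The product of CHS5 is a core part of exomer, the coat that carries Chs3p from the Golgi to the cell surface. Its log2 ratio was 0.68, 0.38 and 0.42 on arrays 1 to 3 and 0.78, 0.07 and 0.39 on arrays 4 to 6. The mutant was higher on all 6 arrays, and lowest on array 5, where it was close to 0. The value of array 3 is the mean of spots at -0.28 and 1.13. The mean was 0.45 (SE 0.11, 95% interval 0.18 to 0.73), a rise of 1.37-fold (adjusted p = 0.0277, limma). This call depended on the loess curve: with median normalization CHS5 was higher in the mutant on 2 arrays and lower on 4, with a mean of 0.11 and an adjusted p of 0.782. It was also lost with the slide as a block (adjusted p = 0.0567) and without array 1, 2, 4 or 6, at adjusted p of 0.0641 to 0.0812.

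The second exomer gene did not follow CHS5. CHS6, whose product recognizes Chs3p as cargo, had a mean of -0.06 (SE 0.09, 95% interval -0.29 to 0.16, adjusted p = 0.676), with single arrays between -0.37 and 0.08. CHS6 was also the dimmest of these genes, with a signal over background of 1.16 to 1.75 in myo1Δ and 1.08 to 2.27 in wild type. In wild type 2 of its 12 spot values did not exceed the 95th percentile of negative controls. All spot values of the other chitin genes did so in both genotypes.

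BNI4, the scaffold between Skt5p and the septins, was lower in the mutant on all 6 arrays without being called. Its log2 ratio was -0.50, -0.74 and -0.10 on arrays 1 to 3 and -0.08, -0.32 and -0.05 on arrays 4 to 6. The values on arrays 3, 4 and 6 were close to 0. Each value is the mean of 2 spots, which lay a median of 0.72 apart. Their signs were opposite on array 4 (0.39 and -0.55), array 5 (-0.67 and 0.04) and array 6 (0.40 and -0.51). The mean was -0.30 (SE 0.12, 95% interval -0.58 to -0.01, adjusted p = 0.109). By the mean of their spots, 4 of the 10 chitin genes, BNI4 included, lay on one side of 0 throughout. So did 28.1% of the 6170 genes with a value on every array.

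SKT5, the activator of Chs3p, and CHS7, its export factor in the endoplasmic reticulum, were read from 1 spot each. SKT5 was 0.38, 0.43 and -0.76 on arrays 1 to 3 and -0.98, 0.08 and -0.61 on arrays 4 to 6. The mutant was higher on 3 arrays and lower on 3, and the mean was -0.24 (SE 0.22, 95% interval -0.77 to 0.28, adjusted p = 0.455). CHS7 was 0.09, -0.55 and -0.57 on arrays 1 to 3, and 0.17, 0.08 and 0.92 on arrays 4 to 6. Array 6 was the highest and the mean was 0.02 (SE 0.20, 95% interval -0.45 to 0.50, adjusted p = 0.945).

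The largest difference among the 10 genes lay at the end of the precursor pathway. QRI1 encodes UDP-N-acetylglucosamine pyrophosphorylase, the enzyme that makes the activated sugar itself. Its log2 ratio was -1.18, -1.90 and -0.48 on arrays 1 to 3 and -0.81, -2.44 and -0.98 on arrays 4 to 6. The mutant was lower on every array, most of all on arrays 2 and 5, the arrays with the mutant in Cy3. The mean was -1.30 (SE 0.26, 95% interval -1.91 to -0.68), a level 2.46-fold lower in myo1Δ (adjusted p = 0.0146, limma), and 97.9% of all genes had a higher mean. Without array 3 the mean was -1.46 (adjusted p = 0.0108).

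QRI1 had a signal over background of 1.23 to 2.50 in myo1Δ and 1.31 to 7.11 in wild type over its 12 spot values. Before normalization it was lower in the mutant on 5 arrays, and on array 3 it was 2.30 in myo1Δ and 1.68 in wild type. With median normalization array 3 gave 0.14 and the other arrays gave -2.45 to -0.80. The 2 spots of QRI1 lay a median of 0.72 apart on the log2 scale, against medians of 0.197 to 0.334 over all genes with duplicate spots on each array. Tested on its own, the spot with the weaker result had a mean of -1.16 (adjusted p = 0.0573).

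**Figure D2:**
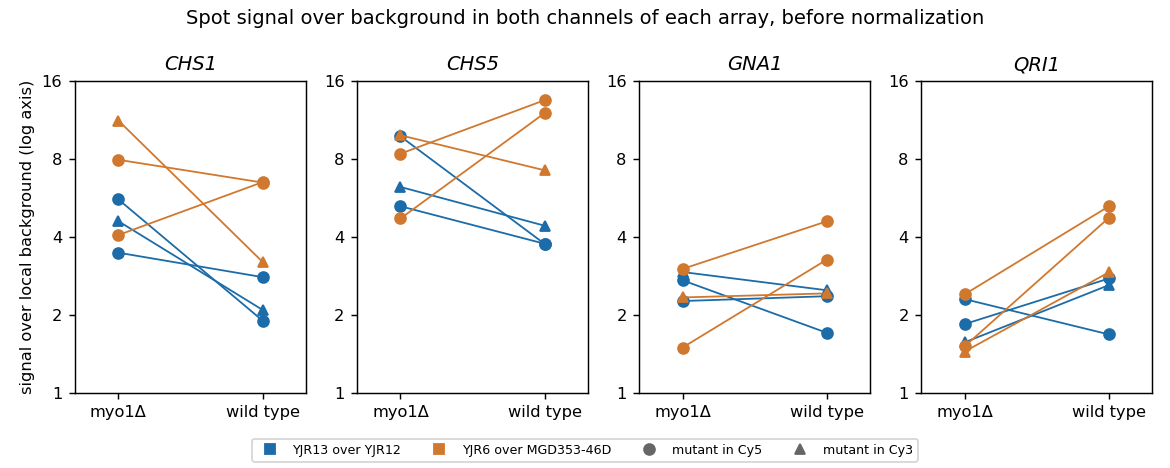
Signal over local background of CHS1, CHS5, GNA1 and QRI1 before normalization (log axis), with myo1Δ at the left and wild type at the right of each panel and 1 line per array. QRI1 was lower in the mutant channel on 5 of 6 arrays and CHS1 was higher on 5 of 6, while CHS5 and GNA1 each had lines in both directions.

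GNA1, which encodes the acetyltransferase of the second step, fell by a smaller amount. Its log2 ratio was -0.39, -0.33 and -0.27 on arrays 1 to 3 and -0.12, -0.83 and -0.65 on arrays 4 to 6. Every array was below 0 and arrays 5 and 6 were the lowest. The value of array 4 is the mean of spots at 0.40 and -0.63. The mean was -0.43 (SE 0.12, 95% interval -0.71 to -0.15), or 1.35-fold lower in myo1Δ (adjusted p = 0.0352, limma). With median normalization array 3 lay above 0, at 0.40, and the gene was not called (mean -0.34, adjusted p = 0.267). Leaving out array 1, 2, 5 or 6 also took GNA1 out of the called genes, at adjusted p of 0.0736 to 0.0919.

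GFA1, which encodes the amidotransferase of the first committed step, did not pass the test. It was 0.32, 0.35 and -0.48 on arrays 1 to 3 and -0.61, 0.44 and 0.23 on arrays 4 to 6. The mutant was higher on 4 arrays and lower on arrays 3 and 4, and the mean was 0.04 (SE 0.18, 95% interval -0.37 to 0.45, adjusted p = 0.885). PCM1, whose mutase acts between Gna1p and Qri1p, was -0.58, -0.41 and 0.33 on arrays 1 to 3 and -0.74, -1.08 and -0.01 on arrays 4 to 6. It was lower in the mutant on 5 arrays, with a mean of -0.41 (SE 0.19) and an adjusted p of 0.145, and passed the threshold only when array 3 was left out (mean -0.56, adjusted p = 0.0493). Along the pathway the means were thus 0.04 for GFA1, -0.43 for GNA1, -0.41 for PCM1 and -1.30 for QRI1, of which GNA1 and QRI1 were called.

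The arrays were also compared by the dye of the mutant. The arrays with the mutant in Cy5 and those with the mutant in Cy3 did not overlap for CHS3, CHS5, GFA1 and QRI1, which are 4 of the 10 chitin genes against 20.1% of all genes. The mean was -0.86 with the mutant in Cy5 and -2.17 with the mutant in Cy3 for QRI1. For CHS3 it was -0.50 with the mutant in Cy5 and 0.31 with the mutant in Cy3. In a limma fit with a dye term, the term had an unadjusted p of 0.00322 for QRI1 and 0.00792 for CHS3. For CHS5 and GFA1, whose arrays were only just apart by dye, this p was 0.158 and 0.162. After adjustment no gene of 6254 passed 0.05 for the dye term, while 605 (9.67%) had an unadjusted p under 0.05. With the dye term in the model QRI1 was lower by more, at -1.52 (adjusted p = 0.00548), and CHS3 was at -0.09 (adjusted p = 0.543).

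The use of 2 strain pairs asks whether a difference is shared by both myo1Δ backgrounds. No chitin gene was called within a pair of 3 arrays by limma, where 1.25% of all genes were called for YJR13 and 18.1% for YJR6, and 3 of the 10 had an unadjusted p under 0.05 in each pair, as did 21.7% of all genes for YJR13 and 36.7% for YJR6. QRI1 had a mean of -1.18 for YJR13 over YJR12 (adjusted p = 0.158) and -1.41 for YJR6 over MGD353-46D (adjusted p = 0.0545). The difference between pairs was 0.23 (95% interval -1.12 to 1.58), so the interval is wider than the mean itself. GNA1 had a mean of -0.33 for YJR13 and -0.53 for YJR6. CHS5 had a mean of 0.50 for YJR13 and 0.41 for YJR6, but with median normalization its mean for YJR6 was -0.33.

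CHS1 averaged 0.68 ± 1.44 in the YJR13 pair, which holds array 3, and 1.34 ± 0.38 in the YJR6 pair (SD, n = 3 each). Without array 3 the YJR13 mean of CHS1 was 1.46, and with the slide as a block it was -0.19. The largest difference among the chitin genes was that of CHS7, with a mean of -0.34 for YJR13 and 0.39 for YJR6. The difference of -0.73 (SE 0.32, 95% interval -1.51 to 0.04) was not called (adjusted p = 0.682, limma). No chitin gene had an unadjusted p under 0.05 for this difference, against 7.56% of all genes, of which 0.0639% were called. For none of the 10 genes did the arrays of one pair lie wholly above those of the other, as they did for 12.7% of all genes.

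**Figure D3:**
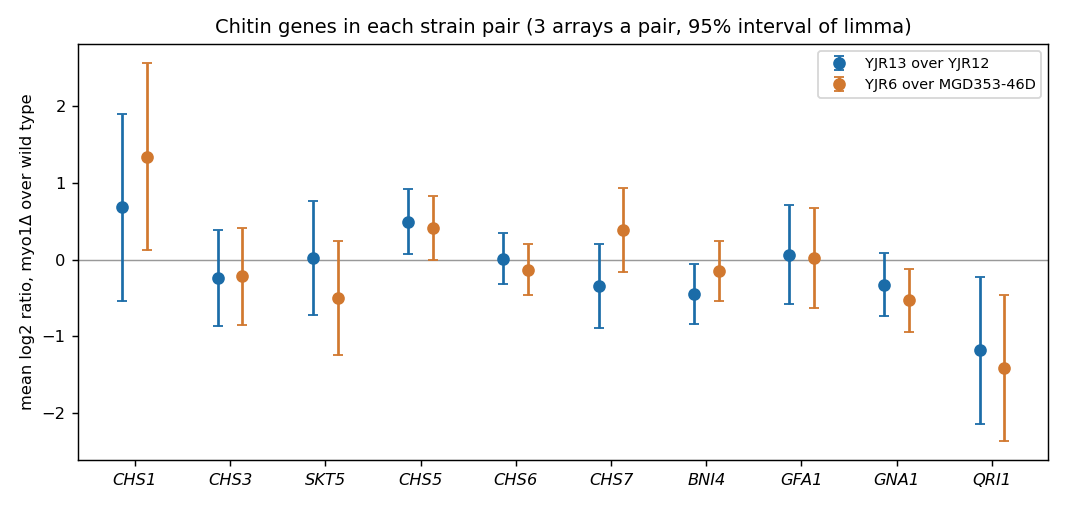
Mean log2 ratio of myo1Δ over wild type for each chitin gene in the pairs YJR13 over YJR12 and YJR6 over MGD353-46D (3 arrays each, 95% interval of limma). The intervals of the pairs overlap for every gene, and CHS7 has the largest difference, with means of -0.34 and 0.39.

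Another 19 genes of chitin metabolism gave 2 called higher and 2 called lower, beside the same 14.2% and 12.9% of all genes. SHC1, a relative of SKT5 that activates Chs3p during sporulation, was 1.03, 1.64 and 0.05 on arrays 1 to 3 and 2.74, 2.08 and 1.37 on arrays 4 to 6. It was above 0 on all 6 arrays, although barely on array 3, and rose by 1.49 (SE 0.32, adjusted p = 0.0184), a call lost without array 2 (adjusted p = 0.0567) and with the slide as a block (adjusted p = 0.0529). Without array 3 its mean was 1.77 (adjusted p = 0.00606). RCR1, which encodes an endoplasmic reticulum membrane protein whose overproduction lowers chitin content, was 1.82, 1.49 and -0.16 on arrays 1 to 3 and 0.92, 1.18 and 0.62 on arrays 4 to 6. Only array 3 was below 0, and the mean was 0.98 (SE 0.25, adjusted p = 0.0288). Leaving out array 1, 2, 4, 5 or 6 took RCR1 out of the called genes, at adjusted p of 0.0585 to 0.0853, while without array 3 its mean was 1.21 (adjusted p = 0.00757).

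UTR2, which encodes a transglycosylase that links chitin to glucan, had the largest change of the 29 genes. It was read from 1 spot and was -0.81, -2.33 and -3.01 on arrays 1 to 3 and -2.18, -2.31 and -1.65 on arrays 4 to 6. Every array was well below 0, with array 1 the closest to it. The mean was -2.05 (SE 0.27), or 4.14-fold lower in myo1Δ (adjusted p = 0.00423), and on the 6 arrays UTR2 was the only one of the 29 to pass an adjusted p of 0.01. Without array 3, CHS1, SHC1 and RCR1 passed it as well. CRH1, a homolog of UTR2, was not called on the 6 arrays.

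CHS2 encodes the synthase of the primary septum, the structure that the contractile ring guides. It was -0.20, -0.17 and -0.71 on arrays 1 to 3 and -0.96, -0.28 and -1.34 on arrays 4 to 6. All arrays were below 0, with arrays 4 and 6 the lowest, and the mean was -0.61 (SE 0.18, adjusted p = 0.0441). The call of CHS2 was lost without any single array, at adjusted p of 0.0600 to 0.112. The remaining 15 genes did not pass the test on the 6 arrays. Among them were the chitinase gene CTS1, the exomer genes BUD7, BCH1 and BCH2 and the deacetylase genes CDA1 and CDA2. In the YJR6 pair 4 of the 19 were called, beside 18.1% of all genes. They included CRH1 at -1.11 (adjusted p = 0.0268, limma) and CRR1 at 1.03 (adjusted p = 0.0212). In the YJR13 pair CRH1 and CRR1 were at 0.05 and -0.35, and none of the 19 was called, beside 1.25% of all genes. Neither difference between pairs was called (adjusted p = 0.554, limma). The unadjusted p was 0.00930 for CRH1 and 0.00156 for CRR1. These were 2 of the 19 under 0.05, beside 7.56% of all genes.

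**Figure D4:**
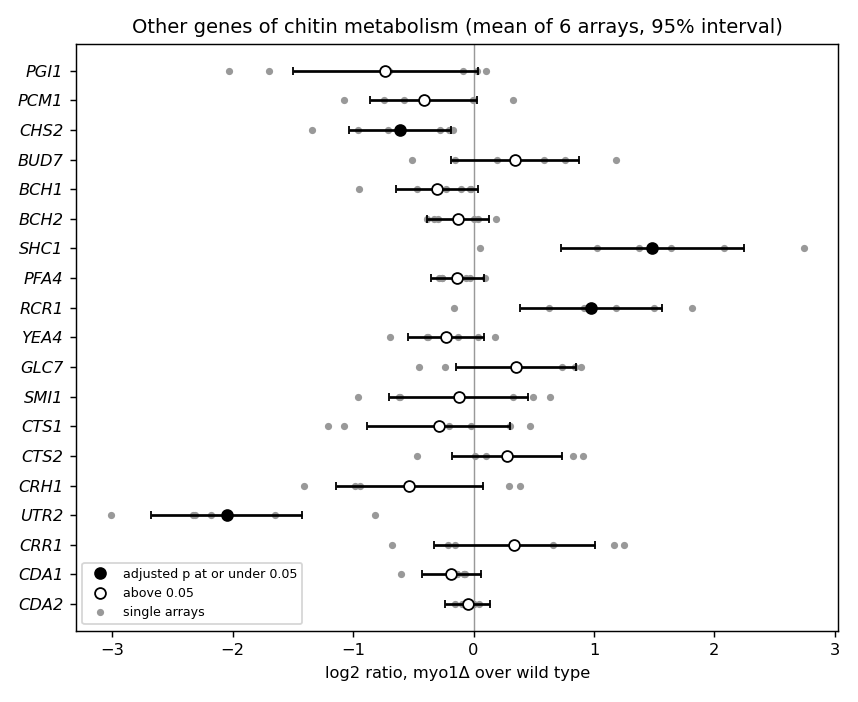
Log2 ratio of myo1Δ over wild type for the other 19 genes of chitin metabolism, with the mean and 95% interval of limma over 6 arrays (filled where the adjusted p was at or under 0.05) and the single arrays in grey. SHC1 and RCR1 lie to the right of 0 and UTR2 and CHS2 to the left of it.

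Genes that mark particular cells were counted beside the 14.2% of all genes called higher and the 12.9% called lower. Of 8 genes of the daughter-specific program of early G1, 4 were called lower in myo1Δ (AMN1, DSE2, DSE4 and SCW11) and none higher. Of 7 genes specific to a cells 3 were called higher, and of 4 genes specific to α cells 1 was called lower. These counts pool all 6 arrays. By strain pair, the means of the 4 α genes were -3.81 to -1.78 for YJR13 and -0.78 to 1.77 for YJR6. Those of the 7 a genes were 0.17 to 1.59 for YJR13 and 0.12 to 0.69 for YJR6. YJR13 is MATa while the other strains are MATα, so mating type and genotype cannot be told apart on arrays 1 to 3. The part of cell cycle stage, mating type and medium in the chitin genes' values was not tested, and in RNA of whole cultures fewer cells in a stage and less RNA per cell cannot be told apart.

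**Figure D5:**
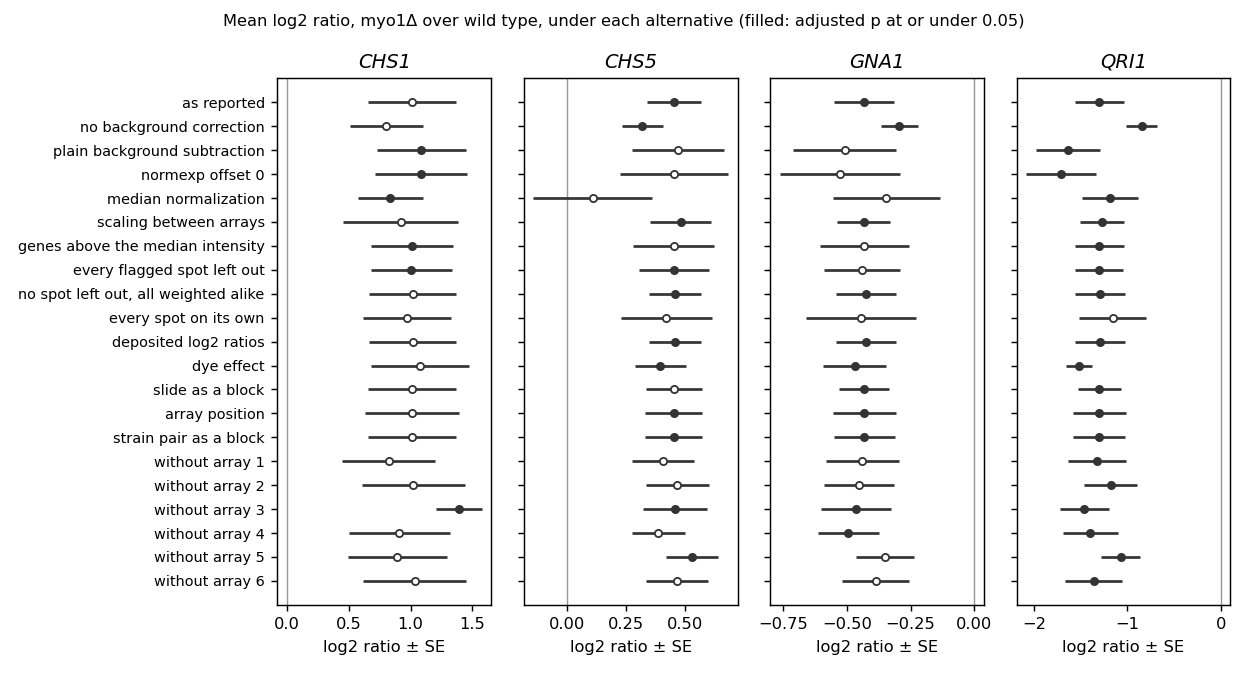
Mean log2 ratio of myo1Δ over wild type (± SE) for CHS1, CHS5, GNA1 and QRI1 as reported, under each alternative processing and without each array in turn, filled where the adjusted p was at or under 0.05. QRI1 stays below 0 and filled in all but 1 row (every spot on its own), while the call of CHS5 and GNA1 comes and goes and CHS1 is filled in a minority of rows.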

How the data were processed

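The authors hybridized amplified cRNA to Agilent yeast oligonucleotide arrays, scanned them and read the spots with ImaGene (6.0.0 per the file headers). The deposited files hold a mean intensity for every spot and a median one for the background around it. The deposited log2 ratios of the series run Cy5 over Cy3 and were recomputed from those intensities to within 4.74e-08, by normexp (offset 50) and a loess curve per array. Per the methods, the authors used limma.

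Here the spot intensities were processed with R 4.3.3 and limma 3.58.1 in the same way. Spots marked poor (32 to 192 per array) were left out, control spots had no weight in the curve, and ratios were turned to myo1Δ over wild type by the dyes in the labels. Arrays 1 and 2 share a scan name whose dye order is that of array 2, and MYO1 was at -2.11 on array 1 with the labels' order. Spots of a gene were averaged. The 8 genes with 2 spots have the same probe in both, and no spot of the 10 genes was marked poor, empty or saturated. Means were tested with lmFit and eBayes, with p-values adjusted by Benjamini-Hochberg over all genes, and a second fit had a coefficient per strain pair. Each array holds 1 mutant and 1 wild type sample, so the number of arrays limits the precision. The procedure was tested on simulated data.

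The chitin genes, the other lists and the tests were chosen with earlier results of these data known. All 10 genes are named, and of the wider list those called at 0.05 plus CHS2 and PCM1; other names were chosen after their values were seen. Alternatives changed the background correction, normalization, spot filters, dye term and blocks, and dropped single arrays. Means by dye, and the same alternatives for the wider list, were chosen after seeing the data. No coordinates are given, since the array files name no genome build.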

Additional observations from a re-analysis of the deposited data

Results flagged for a closer look

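In CHS1 the value of array 3 lay far from the other 5 relative to their range. Its log2 ratio of myo1Δ over wild type was -0.88 there, against 0.91 to 1.96 on the other arrays. Of the 16 genes looked at in this way, CHS1 was the only one with such an array. Chance alone marks about 1 in 20 genes.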

How the results depend on the processing

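QRI1 was lower in myo1Δ in all 14 other processings and in all 6 runs that left out an array, and was called in 13 of the 14 and in all 6. CHS5 and GNA1 were each called in 8 of 14 and in 2 of 6, and CHS1 in 5 of 14 and 1 of 6, all in the same direction.

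The number of chitin genes called higher (1) was 2 with every flagged spot left out and 0 with every spot tested on its own or the slide as a block. The number called lower (2) was 1 with flagged spots left out, genes above the median intensity, median normalization, normexp with an offset of 0 or plain subtraction, and 0 with every spot on its own. At an adjusted p of 0.01, 1 gene was lower with the dye effect, scaling between arrays, flagged spots left out, genes above the median intensity, an offset of 0 or plain subtraction, against 0. In the YJR6 pair 1 gene was lower with the same settings, except that median normalization takes the place of scaling. In the wider list the 2 called higher became 1 with scaling or the slide block, and the 2 called lower became 1 with median normalization, single spots or the slide block. With the dye effect 2 were called lower, but CTS1 (-0.50, adjusted p = 0.0348, limma) took the place of CHS2 (adjusted p = 0.0687). Over all genes 1693 were called at 0.05, against 1106 with the slide block and 815 to 1864 without 1 array. At 0.01 the number was 465, against 2 with the slide block and 1015 with an offset of 0. Of the 10 genes, 8 lay above the median intensity. The cause was not tested.

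Without 1 array, the chitin genes called numbered 0 to 2 higher and 1 to 2 lower at 0.05, 0 to 1 higher at 0.01, and 0 to 1 higher in the YJR6 pair. The wider list gave 0 to 2 higher and 1 to 2 lower.

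The sign of some values turned. GFA1 was at -0.16 with single spots. CHS7 was at -0.050 with scaling and -0.040 with the dye effect. CHS5 in the YJR6 pair was at -0.33 with median normalization. CHS1 in the YJR13 pair was at -0.19 with the slide block, where only arrays 3 and 4 tell the pairs apart. The difference between pairs of QRI1 was -0.20 with scaling and -0.13 with single spots. Without 1 array, GFA1 ranged from -0.039 to 0.17, CHS6 from -0.089 to 0.00046, CHS7 from -0.15 to 0.14, and the QRI1 difference from -0.29 to 0.58. None of these values was called, and of 336 pair values and differences of other chitin genes 42 changed sign, none of them called.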

Other observations

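The deposited log2 ratios are in the order of the rows of the scanner files, and in that order they matched the recomputed ratios to 4.74e-08. The platform annotation numbers its spots by feature number instead. Matched by feature number, the annotated symbol equalled that of the scanner file for 99.8% of 9202 named spots, and matched by row number for 0.0543%. A gene name given to the deposited ratios through the row number would thus nearly always be that of another gene. The names used for CHS1, QRI1 and the other chitin genes came from the scanner files.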
